A study of Mus musculus with 8 samples.

Results

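The 48 genes described here encode the machinery of chromosome segregation: the spindle assembly checkpoint, the inner and outer kinetochore, the chromosomal passenger complex, the mitotic kinases and phosphatases, the anaphase-promoting complex with separase, spindle assembly factors and the cytokinesis apparatus. They were listed by gene symbol, with no cut-off on a measured value but with earlier results of these arrays known. All 48 had a probe on the array. All 48 entered the test, out of 19232 genes tested and 20283 gene symbols with a probe.

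RNA was measured in hand-dissected tissue of ICR mouse embryos at embryonic day 16. There were 4 samples of the germinal layer beside the ventricle, the ventricular and subventricular zone (V/SVZ), and 4 of the cortical plate (CP), the layer where newborn neurons settle. Each sample was hybridised to its own 1-colour Agilent array. Both tissues are whole dissected layers and so mix cell types. The labels do not say whether samples came from separate embryos or pools. Each p-value therefore sets a tissue difference only against the spread among these samples, and part of that spread may be technical.

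In mitosis, kinetochores assembled on the centromeres bind spindle microtubules, and unattached kinetochores hold the anaphase-promoting complex in check through the checkpoint proteins. Once every chromosome is attached, Cdc20 activates that complex, securin and cyclin B are destroyed, separase cuts cohesin, and the central spindle then guides the division furrow. Neural progenitors in the V/SVZ divide, while neurons of the cortical plate have left the cell cycle; transcripts of most of these genes are made in late S, G2 and M phase.

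A level below is the log2 signal minus the array's 75th percentile, and a difference is the V/SVZ mean minus the CP mean on that scale. It is given with its standard error over 4 V/SVZ and 4 CP arrays and with limma's p-value, adjusted by Benjamini-Hochberg over all genes tested, at a threshold of 0.05. Levels are not compared between genes. The arrays had 58.4% to 62.9% of gene probes well above background, and their number, 4 a tissue, limits the precision. All V/SVZ arrays lay on 1 slide and all CP arrays on another, so slide and tissue cannot be told apart. The 10 radial glia markers and the 7 intermediate progenitor markers examined were all higher in V/SVZ, and the 10 cortical neuron markers were all higher in CP. In dissected tissue, fewer cells of a type and less RNA per cell cannot be told apart.

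Of the 48 genes, 47 were higher in V/SVZ, none (0) was higher in CP and 1, Fzr1, was not called. The background over all genes was 35.0% called higher in V/SVZ and 44.6% called for CP. The 48 genes had a median difference of 4.29 on the log2 scale, a median of 19.5-fold, against -0.09 for all genes tested. At least 8-fold higher in V/SVZ were 39 of the 48, against 3.58% of all genes. At least 32-fold higher were 14 of the 48 and 185 of all 19232 genes tested. Of the 39, Ttk, Cenpf and Plk4 passed 8-fold only by a fitted CP level below background. The 14 include Cdc25c, well above background on only 2 CP arrays. Both counts hold for the processed signal only. Normexp correction lowered the members' median difference to 3.65 and moved the fold of 18 members by over 1.5 times. In 47 of the 48, every V/SVZ array lay above every CP array, which held for 33.5% of all genes. Because the set was drawn up with earlier results of these arrays known, these shares are a description.

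The median level of the 48 genes ran from 1.43 to 1.58 on the V/SVZ arrays and from -2.89 to -2.74 on the CP arrays. In CP, 43 of the genes were still well above background on all 4 arrays. Cdc25c was so on 2 arrays, and Ttk, Cenpf, Aurkb and Plk4 were on none. These 5 entered the test through V/SVZ alone, and of the other 43 genes 42 were called. The limma p-values of these 5 use CP signals not well above background on some or all CP arrays, so none is printed. For the 4 on none the CP level is only a bound, and the difference is given below as "at least", the V/SVZ mean against the higher, on each array, of the gene's own signal and the lowest signal well above background. The bound holds for the processed signal only: normexp correction gave 3.35-fold for Ttk, 2.76-fold for Cenpf and 3.47-fold for Plk4, below the bounds given for them, and 1.64-fold for Aurkb. With the 4 genes at their bound, the median difference was 4.23. Among genes tested, 185 had a difference of 5 or more and 14 of them were members, while 172 lay between 4 and 5 and 14 of those were members.

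**Figure D1:**
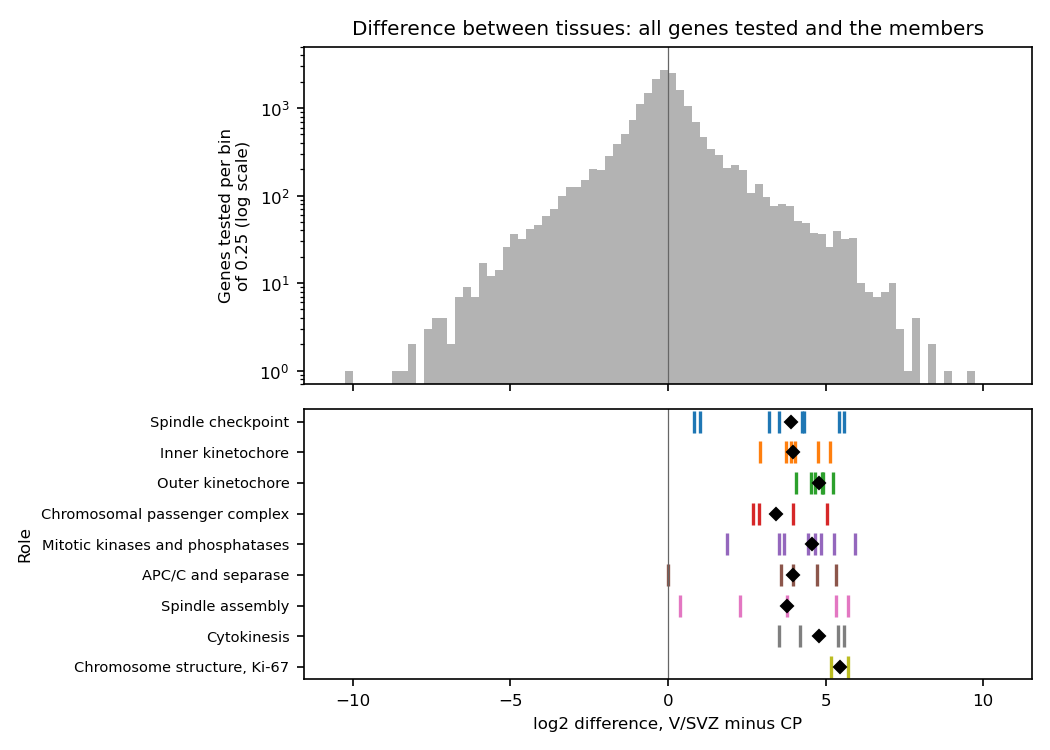
The upper panel counts the 19232 genes tested in bins of 0.25 by their log2 difference, V/SVZ minus CP, on a log count axis. The lower panel marks each of the 48 members as a bar in the row of its role, with the role's median as a diamond; only Fzr1 lies at 0, and most members lie beyond 3 (8-fold).

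Markers of other cell types were mixed in direction, and their part in the members' differences was not tested. Of 10 endothelial markers, 3 were higher in V/SVZ, 1 in CP and 6 were not called, with summed levels of 2.97 to 3.12 in V/SVZ and 2.73 to 2.89 in CP. Of 10 microglia markers, 7 were higher in V/SVZ, 1 in CP and 2 were not called, with a median difference of 1.87. The 7 called for V/SVZ were 3.13-fold (Csf1r) to 5.22-fold (P2ry12) higher there, so microglia markers moved the same way as the members. Their summed levels, 3.83 to 4.22 in V/SVZ and 3.65 to 3.89 in CP, include Itgam, the marker higher in CP (1.76-fold). All 5 red cell markers tested were higher in V/SVZ, at summed levels of 8.32 to 8.56 against 8.04 to 8.13. The 6 interneuron markers split 3 and 3, at 2.68 to 2.90 in V/SVZ and 3.05 to 3.16 in CP. Of 5 oligodendrocyte progenitor markers, 2 were higher in V/SVZ, at 0.16 to 0.55 against -0.26 to 0.11. The 6 meninges markers gave 2 each way, at 0.13 to 0.55 and -0.10 to 0.10, with 1 of them (Lum) not well above background on any V/SVZ array. No other marker tested from these 6 lists was below background throughout a tissue. The summed level is the log2 of the markers' summed signals on the same scale, and the 10 radial glia markers reached 7.66 to 7.75 in V/SVZ and 3.55 to 3.73 in CP, where 2 of the 10 were not well above background on any array.

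Many of the 48 genes share short sequences around their start sites, which were no part of how they were chosen. Promoters of many G2 and M phase genes carry the cell cycle genes homology region, here searched as TTTGAA or TTCGAA, which DREAM and MuvB complexes bind, and CCAAT boxes, which NF-Y binds. The kinds can overlap by 1 letter, and TTCGAA reads the same on both strands. Both were searched on either strand in RefSeq promoter entries of GRCm38.p6, which run from 250 bases before to 50 bases after the start and held 41 of the 48 genes and 27025 genes in all. TTTGAA or TTCGAA occurred in 28 of the 41 members (68.3%) and in 21.7% of all genes. CCAAT occurred in 31 members (75.6%) and 41.1% of all genes, and both in 25 members (61.0%) and 8.61% of all genes. In the 250 bases before the start alone, the shares were 36.6% and 19.6% for TTTGAA or TTCGAA, and 70.7% and 37.5% for CCAAT. Within 50 bases on either side of the start, a window chosen after the positions were seen, 24 members (58.5%) and 6.12% of all genes held TTTGAA or TTCGAA. A match is a run of letters, and binding was not measured here.

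The 250 bases before the start are shown for the 3 members with the largest differences that were above background on all arrays and held such letters, and for the 2 with the smallest differences, which did not have to hold them. Nusap1, with a difference of 5.72, was passed over because its promoter entry held none of the letters. These sequences are written 5′ to 3′ on the gene's strand, with the letters searched for, and their reverse complements, in capitals. Top2a lies on the minus strand at chr11:99024190-99024439, Prc1 on the plus strand at chr7:80294226-80294475 (the second of 2 overlapping entries), and Bub1b on the plus strand at chr2:118597961-118598210. Of the small-difference genes, Fzr1 lies on the minus strand at chr10:81378371-81378620 and Ckap5 on the plus strand at chr2:91526512-91526761.
Top2a: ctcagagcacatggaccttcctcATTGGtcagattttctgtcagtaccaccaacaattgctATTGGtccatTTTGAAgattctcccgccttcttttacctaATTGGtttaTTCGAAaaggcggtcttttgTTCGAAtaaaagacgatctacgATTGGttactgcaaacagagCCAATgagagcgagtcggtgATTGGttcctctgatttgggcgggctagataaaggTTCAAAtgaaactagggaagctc
Prc1: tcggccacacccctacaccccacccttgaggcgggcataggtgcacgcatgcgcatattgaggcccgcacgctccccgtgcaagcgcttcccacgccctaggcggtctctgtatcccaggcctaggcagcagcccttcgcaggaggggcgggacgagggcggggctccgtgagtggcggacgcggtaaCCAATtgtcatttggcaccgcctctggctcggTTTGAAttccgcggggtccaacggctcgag
Bub1b: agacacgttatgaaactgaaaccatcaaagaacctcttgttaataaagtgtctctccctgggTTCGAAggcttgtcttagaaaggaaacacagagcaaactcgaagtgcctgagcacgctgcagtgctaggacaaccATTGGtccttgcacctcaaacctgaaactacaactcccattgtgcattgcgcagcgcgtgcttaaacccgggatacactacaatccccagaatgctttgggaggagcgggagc
Fzr1: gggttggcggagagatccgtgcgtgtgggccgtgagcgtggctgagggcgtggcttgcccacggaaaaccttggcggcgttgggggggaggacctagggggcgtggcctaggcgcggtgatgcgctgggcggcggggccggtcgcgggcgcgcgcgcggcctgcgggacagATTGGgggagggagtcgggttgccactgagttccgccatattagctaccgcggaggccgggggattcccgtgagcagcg
Ckap5: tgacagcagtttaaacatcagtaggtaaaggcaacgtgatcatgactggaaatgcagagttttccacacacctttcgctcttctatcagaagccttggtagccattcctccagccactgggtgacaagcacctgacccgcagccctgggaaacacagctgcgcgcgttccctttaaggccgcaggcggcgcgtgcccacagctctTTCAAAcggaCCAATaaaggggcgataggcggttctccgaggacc

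Top2a held both kinds of letters several times, Bub1b held 1 of each before the start, and so did Prc1 in the entry shown. In the other Prc1 entry TTTGAA begins at -5 and runs across the start, so only CCAAT lies wholly before it. Fzr1 held a single CCAAT box on the reverse strand and neither TTTGAA nor TTCGAA. Ckap5 held both kinds with a difference of only 0.39. Members with TTTGAA or TTCGAA in the 250 bases had a median difference of 4.74 (n = 15) and those without 4.27 (n = 26). Among all tested genes with a promoter entry, the 1618 with TTTGAA or TTCGAA there had a median difference of 0.01 and the 9383 without had -0.04. For both kinds of letters together, those medians were 0.13 (624 genes) and -0.05 (10377 genes).

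Other members with a difference of 5 or more that held the letters within 50 bases of the start are shown as 26 bases centred on them, in capitals, to set the match beside its neighbours. Bub1 is on the minus strand at chr2:127831830-127831855, Ect2 on the minus strand at chr3:27153824-27153849, Ube2c on the plus strand at chr2:164769890-164769915 and Cenpa on the plus strand at chr5:30666892-30666917. In Ube2c the match begins at position -29 from the start, and in Bub1, Ect2 and Cenpa it begins at base 15, 16 and 17 of the transcript. In the other Ect2 promoter entry the same match begins at base 40, and a further TTTGAA begins at -114.
Bub1: gcgcggggaaTTCGAAtcgccggcgg
Ect2: actggattttTTTGAAtcggaggcgg
Ube2c: agggttgcaaTTCAAAcgcgggcggc
Cenpa: cgggtgatttTTTGAActgctggcga

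All 9 roles had a median well above 0, and their ranges largely overlapped. Role medians were 3.89 for the checkpoint, 3.97 for the inner and 4.79 for the outer kinetochore, 3.43 for the chromosomal passenger complex and 4.55 for the kinases and phosphatases. They were 3.98 for the anaphase-promoting complex with separase, 3.79 for spindle assembly, 4.79 for cytokinesis and 5.45 for the pair Top2a and Mki67. The ranges of the first 8 of these roles overlapped one another. Every member of the cytokinesis group and of the last pair, and every outer kinetochore gene by its fitted value, was at least 8-fold higher in V/SVZ. Each of the other 6 roles held 1 or 2 members under that size. The roles were not tested against each other. The order of the medians also depended on background correction: after normexp correction, cytokinesis stood at 4.37, the outer kinetochore at 4.10, the kinases at 3.88, the passenger complex at 3.41 and the checkpoint at 3.02.

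**Figure D2:**
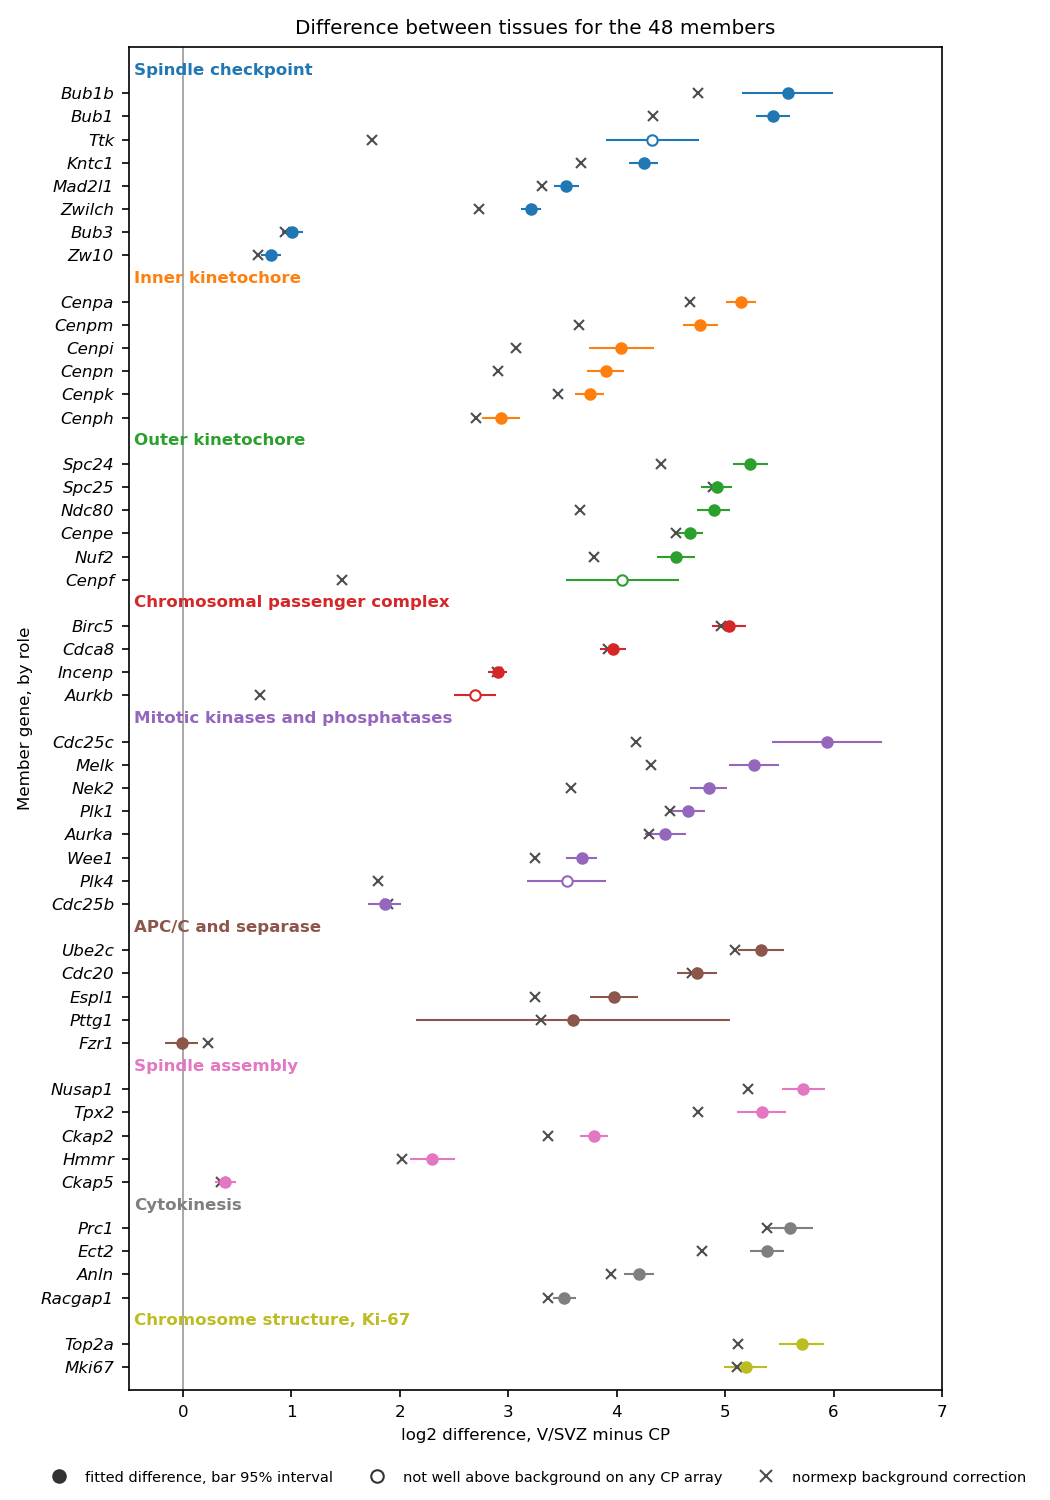
Each point is a member's log2 difference, V/SVZ minus CP, with its 95% interval over 4 arrays a tissue; open points had no CP array well above background, and crosses give the difference after normexp background correction. All but Fzr1 lie right of 0, Ckap5, Zw10, Bub3 and Cdc25b stand apart within their roles at 0.39 to 1.86, and Pttg1 has the widest interval.

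All 8 checkpoint genes were higher in V/SVZ, with Bub3 and Zw10 well below the rest in size. Bub1, the kinase that recruits checkpoint proteins to kinetochores, stood at 0.55, 0.55, 0.39 and 0.48 on V/SVZ arrays 1 to 4 and -4.99, -4.90, -4.82 and -5.09 on CP arrays 1 to 4. No array of one tissue overlapped the other, and the difference was 5.44 ± 0.07 (43.4-fold, limma adjusted p = 3.96e-10). Bub1b, which encodes the inhibitor BubR1, stood at 1.26, 1.13, 1.05 and 1.17 on V/SVZ arrays 1 to 4 and -4.89, -3.99, -4.23 and -4.58 on CP arrays 1 to 4, with the CP arrays more spread (SD 0.39). Its difference was 5.58 ± 0.18 (47.7-fold, limma adjusted p = 3.07e-08). After normexp correction, Bub1 was 20.2-fold and Bub1b 26.8-fold higher. Bub3, the partner that binds both proteins, stood at 3.41, 3.43, 3.38 and 3.50 on V/SVZ arrays 1 to 4 and 2.49, 2.36, 2.45 and 2.40 on CP arrays 1 to 4: the tissues again did not overlap, but the gap was small, 1.01 ± 0.04 (2.01-fold, limma adjusted p = 1.26e-07). Within an array, the Bub1 value minus the Bub3 value was 4.43 ± 0.08 higher in V/SVZ than in CP (SE; exact two-sided permutation p = 0.0286, the smallest that 70 arrangements allow), and the Bub1b value minus the Bub3 value 4.57 ± 0.22 higher (exact permutation p = 0.0286). These gaps were 3.39 and 3.80 after normexp correction, again without overlap.

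The RZZ complex, which brings Mad1 and dynein to kinetochores, was similarly uneven. Its subunit Kntc1 (Rod) stood at 0.36, 0.44, 0.22 and 0.26 on V/SVZ arrays 1 to 4 and -3.92, -4.00, -3.86 and -3.92 on CP arrays 1 to 4, a difference of 4.25 ± 0.06 (19.0-fold, limma adjusted p = 5.32e-10). Zwilch was 3.21 ± 0.04 higher in V/SVZ (9.27-fold, limma adjusted p = 4.03e-10). Zw10, the third subunit, which also works in membrane traffic, stood at 0.54, 0.47, 0.51 and 0.62 on V/SVZ arrays 1 to 4 and -0.29, -0.28, -0.26 and -0.28 on CP arrays 1 to 4, with no overlap and a difference of 0.82 ± 0.04 (1.76-fold, limma adjusted p = 3.42e-07). Relative to Zw10 on the same array, Kntc1 was 3.43 ± 0.08 and Zwilch 2.40 ± 0.05 higher in V/SVZ than in CP, each without overlap (exact permutation p = 0.0286 for both). Mad2l1 (Mad2), which sequesters Cdc20, was 11.6-fold higher on its brightest probe (limma adjusted p = 6.24e-10) and 3.53, 3.03 and 2.92 higher on the log2 scale on its 3 probes. Ttk (Mps1), the kinase at the head of the checkpoint, was not well above background in CP. It was at least 6.63-fold higher in V/SVZ by the processed signal, but 3.35-fold after normexp correction.

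Among 6 inner kinetochore genes, all were higher in V/SVZ. Cenpa, the histone H3 variant that marks the centromere, stood at 2.35, 2.27, 2.15 and 2.31 on V/SVZ arrays 1 to 4 and -2.92, -2.91, -2.75 and -2.92 on CP arrays 1 to 4. The tissues were far apart, by 5.15 ± 0.06 (35.4-fold, limma adjusted p = 3.76e-10). Of the constitutive centromere network, Cenpm differed by 4.77, Cenpi by 4.04, Cenpn by 3.90, Cenpk by 3.75 and Cenph by 2.93 on the log2 scale, 27.3-fold to 7.64-fold, each with no overlap between tissues and with limma adjusted p of at most 2.76e-08. Cenpi, Cenpm and Cenpn had CP levels between -5.19 and -4.46, near the floor of the arrays, and their differences shrank to 3.07, 3.65 and 2.91 after normexp correction.

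All 6 outer kinetochore genes, which grip microtubules, were higher in V/SVZ and lay between 4.05 and 5.23 by their fitted values. In the NDC80 complex, Spc24 differed by 5.23, Spc25 by 4.92, Ndc80 by 4.89 and Nuf2 by 4.55, that is 37.6-fold, 30.3-fold, 29.7-fold and 23.4-fold (limma adjusted p of at most 1.11e-09). After normexp correction, Spc24 was 21.3-fold, Ndc80 12.6-fold and Nuf2 13.8-fold higher, and Spc25, on a brighter probe, 29.6-fold. Spc25, on a bright probe, stood at 4.53, 4.48, 4.35 and 4.40 on V/SVZ arrays 1 to 4 and -0.52, -0.55, -0.35 and -0.50 on CP arrays 1 to 4, with no overlap (limma adjusted p = 3.96e-10). Ndc80 minus Spc24 on the same array differed between tissues by -0.34 ± 0.07, without overlap (exact permutation p = 0.0286), and by -0.75 after normexp correction. The second Nuf2 probe, not well above background on any CP array, gave 3.89. Cenpe, the kinesin that carries chromosomes to the spindle equator, stood at 3.41, 3.37, 3.33 and 3.37 on V/SVZ arrays 1 to 4 and -1.40, -1.37, -1.20 and -1.28 on CP arrays 1 to 4, a difference of 4.68 ± 0.05 (25.6-fold, limma adjusted p = 3.67e-10). Cenpf, a large outer kinetochore and nuclear matrix protein, had a dim probe. It is given only as at least 3.87-fold higher in V/SVZ by the processed signal, but was 2.76-fold after normexp correction.

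The chromosomal passenger complex corrects faulty attachments and later marks the division plane. All 4 of its genes were higher in V/SVZ, and Birc5 moved more than Incenp. Birc5 (survivin) stood at 4.42, 4.37, 4.19 and 4.30 on V/SVZ arrays 1 to 4 and -0.78, -0.81, -0.60 and -0.68 on CP arrays 1 to 4, without overlap and with a difference of 5.04 ± 0.07 (32.8-fold, limma adjusted p = 5.11e-10). Cdca8 (borealin) was 3.97 ± 0.05 higher in V/SVZ (15.6-fold, limma adjusted p = 4.54e-10). Incenp, the scaffold, stood at 4.23, 4.24, 4.13 and 4.14 on V/SVZ arrays 1 to 4 and 1.28, 1.26, 1.31 and 1.29 on CP arrays 1 to 4, a tight pair of groups with a difference of 2.90 ± 0.04 (7.47-fold, limma adjusted p = 4.64e-10). Birc5 relative to Incenp on the same array was 2.13 ± 0.05 higher in V/SVZ (exact permutation p = 0.0286). Aurkb, the complex's kinase, had a dim probe (-5.40 to -5.18 in V/SVZ and not well above background in CP). It was at least 1.30-fold higher in V/SVZ by the processed signal, and its size beyond that was not measured.

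All 8 mitotic kinases and phosphatases were higher in V/SVZ. Plk1, which drives mitotic entry, spindle maturation and cytokinesis, stood at 3.63, 3.65, 3.47 and 3.63 on V/SVZ arrays 1 to 4 and -1.21, -1.07, -0.92 and -1.05 on CP arrays 1 to 4. Its tissues were separated by 4.66 ± 0.07 (25.2-fold, limma adjusted p = 7.11e-10). Aurka, the centrosomal kinase activated by Tpx2, was 4.45 ± 0.08 higher in V/SVZ (21.8-fold, limma adjusted p = 1.84e-09). Nek2, which parts the centrosomes, differed by 4.85 and Melk, a kinase known from dividing neural progenitors, by 5.27, with CP levels of -5.27 to -5.11 and -4.32 to -3.91 (limma adjusted p = 7.26e-10 and 2.01e-09). After normexp correction their differences were 3.58 and 4.32. Plk4, the trigger of centriole duplication, was at least 7.43-fold higher by the processed signal, but 3.47-fold after normexp correction.

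The paired regulators of Cdk1 entry into mitosis differed in size. Cdc25c, a phosphatase that activates Cdk1, stood at -0.02, -0.12, -0.17 and -0.08 on V/SVZ arrays 1 to 4 and -5.45, -6.40, -5.84 and -6.46 on CP arrays 1 to 4. The tissues did not overlap, and its fitted difference of 5.94 ± 0.22 was the largest of the 48. Only 2 CP arrays were well above background, and it was 4.17 after normexp correction. Cdc25b, a phosphatase of the same family, stood at 1.74, 1.79, 1.69 and 1.77 on V/SVZ arrays 1 to 4 and -0.22, -0.21, 0.03 and -0.04 on CP arrays 1 to 4, a difference of 1.86 ± 0.06 (3.63-fold, limma adjusted p = 4.48e-08). Wee1, the kinase that opposes them, was 3.68 ± 0.06 higher in V/SVZ (12.8-fold, limma adjusted p = 1.14e-09). On the same array, Cdc25c relative to Cdc25b was 4.08 ± 0.26 higher in V/SVZ, and relative to Wee1 2.26 ± 0.25 higher (exact permutation p = 0.0286 for each). Both gaps rest on a Cdc25c signal above background on only 2 CP arrays, and after normexp correction they were 2.28 and 0.93, still without overlap. The pairs Plk1 with Plk4 and Aurka with Aurkb were also computed (1.12 ± 0.14 and 1.76 ± 0.15, exact permutation p = 0.0286 for each), but they rest on a CP bound and rank neither gene.

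The activators and targets of the anaphase-promoting complex held the single uncalled member. Cdc20, the activator that works until anaphase, stood at 4.23, 4.19, 3.89 and 4.13 on V/SVZ arrays 1 to 4 and -0.64, -0.69, -0.54 and -0.66 on CP arrays 1 to 4. V/SVZ exceeded CP on every array, by 4.74 ± 0.08 (26.8-fold, limma adjusted p = 1.11e-09). Fzr1 (Cdh1), the activator that takes over in late mitosis and G1 and is also made in neurons, stood at 2.80, 2.87, 2.67 and 2.94 on V/SVZ arrays 1 to 4 and 2.86, 2.76, 2.92 and 2.79 on CP arrays 1 to 4. Its tissues overlapped, and the difference was -0.01 ± 0.07 with a 95% interval of -0.17 to 0.14 (limma adjusted p = 0.864), or 0.23 and called after normexp correction (adjusted p = 0.0149). Its second probe gave 0.08. Cdc20 relative to Fzr1 on the same array was 4.75 ± 0.06 higher in V/SVZ (exact permutation p = 0.0286).

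Ube2c, the ubiquitin-conjugating enzyme of the complex, was 5.33 ± 0.09 higher in V/SVZ (40.3-fold, limma adjusted p = 1.24e-09). Espl1 (separase), which cleaves cohesin, was 3.98 ± 0.10 higher in V/SVZ (15.7-fold, limma adjusted p = 6.44e-09), or 9.46-fold after normexp correction. Pttg1 (securin), its inhibitor, stood at 4.19, 4.42, 3.78 and 3.92 on V/SVZ arrays 1 to 4 and 0.33, -1.40, 1.50 and 1.49 on CP arrays 1 to 4. V/SVZ was again above CP throughout, but the CP arrays were widely spread (SD 1.37), and the difference of 3.60 ± 0.62 (12.1-fold, limma adjusted p = 0.000879) had the largest error of the set. Without CP replicate 2 it was 2.97, 7.83-fold. The second Pttg1 probe, above background on 2 CP arrays, gave 2.60 ± 0.41, and on it the lowest CP array was replicate 1 (-7.00), not replicate 2 (-5.01).

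All 5 spindle assembly genes were higher in V/SVZ, by 0.39 to 5.72. Nusap1, which bundles spindle microtubules, stood at 2.13, 2.18, 1.94 and 2.11 on V/SVZ arrays 1 to 4 and -3.75, -3.75, -3.44 and -3.57 on CP arrays 1 to 4. It differed by 5.72 ± 0.08 (52.7-fold, limma adjusted p = 7.13e-10). Tpx2, which nucleates microtubules near chromatin and activates Aurka, differed by 5.34 ± 0.10 on its brighter probe (limma adjusted p = 1.75e-09) and by 3.77 ± 0.07 on a dimmer probe that was above background on 1 CP array. The brighter probe's 40.4-fold was 26.9-fold after normexp correction. Ckap2 was 3.79 ± 0.06 higher in V/SVZ (13.8-fold, limma adjusted p = 7.14e-10), and Hmmr, a spindle pole protein, was 2.30 ± 0.09 higher in V/SVZ (4.92-fold, limma adjusted p = 9.14e-08). Ckap5 (chTOG), the microtubule polymerase that also acts outside mitosis, stood at 4.16, 4.15, 4.06 and 4.02 on V/SVZ arrays 1 to 4 and 3.74, 3.71, 3.68 and 3.71 on CP arrays 1 to 4. All V/SVZ arrays were above all CP arrays, by 0.39 ± 0.04 (1.31-fold, limma adjusted p = 4.81e-05). Ckap2 relative to Ckap5 on the same array was 3.40 ± 0.08 higher in V/SVZ (exact permutation p = 0.0286).

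**Figure D3:**
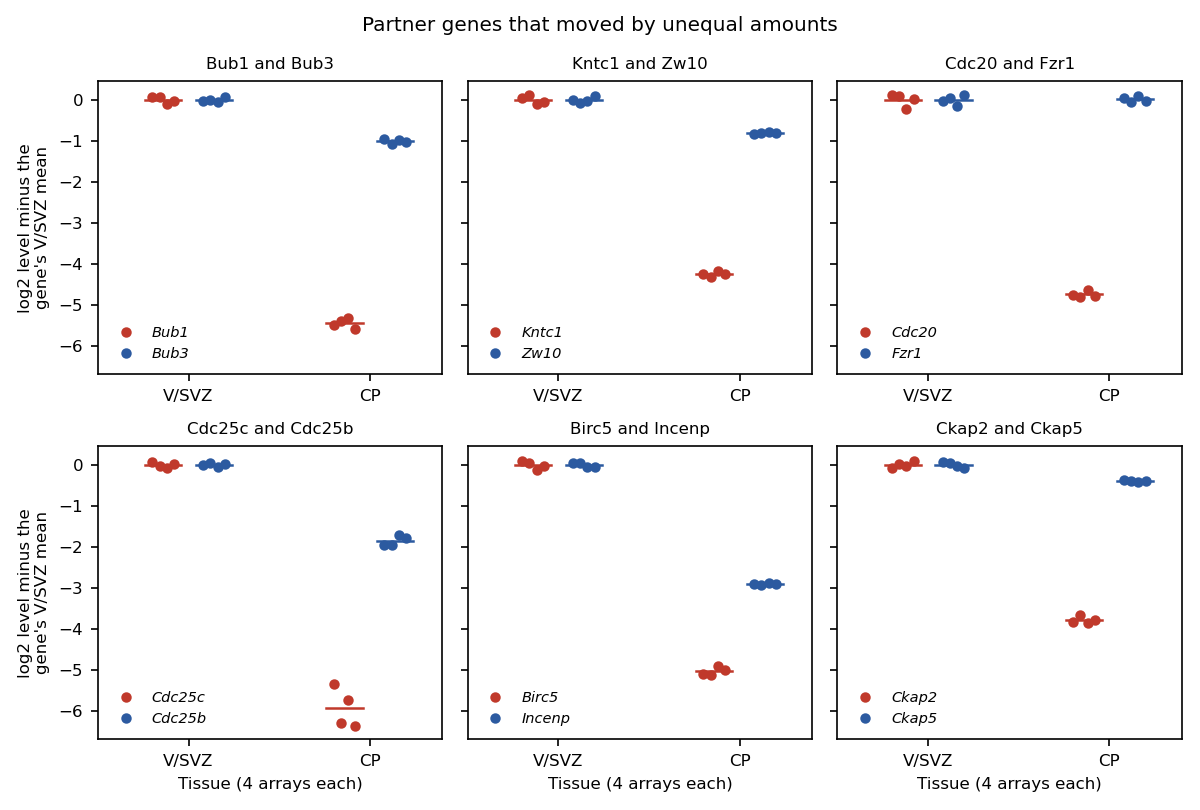
Each panel shows a pair of genes of the same role, called partners here, which need not share a complex. Points give the log2 level on each of 4 V/SVZ and 4 CP arrays minus that gene's own V/SVZ mean. Lines mark the tissue means. The red genes other than Cdc25c fall by 3.79 (Ckap2) to 5.44 (Bub1) from V/SVZ to CP; the drop of Cdc25c, 5.94 here and 4.17 after normexp correction, rests on only 2 CP arrays above background. The blue partners fall by 2.90 (Incenp), 1.86 (Cdc25b), 1.01 (Bub3), 0.82 (Zw10) and 0.39 (Ckap5) or overlap between the tissues (Fzr1).

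All 12 within-array pairs reached the smallest exact permutation p possible, and after Benjamini-Hochberg adjustment over the 12 it stayed 0.0286. That p says only that a pair's 4 V/SVZ and 4 CP values did not overlap. In the pairs with Cdc25c, Plk4 or Aurkb, that gene entered the test through V/SVZ alone. Their values use CP signals not well above background on some or all CP arrays. The share of other gene pairs without overlap was not computed, so the 12 describe these pairs alone. Scaling between arrays cancels in a within-array difference, since both genes are read on the same array.

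The 4 cytokinesis genes were higher in V/SVZ. Prc1, which crosslinks the central spindle, stood at 3.53, 3.48, 3.29 and 3.45 on V/SVZ arrays 1 to 4 and -2.14, -2.33, -1.94 and -2.22 on CP arrays 1 to 4, with no overlap. The difference was 5.60 ± 0.09 (48.4-fold, limma adjusted p = 1e-09). Ect2, the exchange factor that activates RhoA at the furrow, was 5.38 ± 0.07 higher in V/SVZ (41.7-fold, limma adjusted p = 3.96e-10), or 27.6-fold after normexp correction. Racgap1, which binds Ect2 in the centralspindlin complex, was 3.52 ± 0.05 higher in V/SVZ (11.5-fold, limma adjusted p = 4.64e-10). Anln (anillin), the furrow scaffold, was 4.20 ± 0.06 higher in V/SVZ (18.4-fold, limma adjusted p = 6.56e-10).

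Of the remaining pair, Top2a, which untangles sister chromatids, stood at 2.44, 2.38, 2.24 and 2.38 on V/SVZ arrays 1 to 4 and -3.45, -3.42, -3.08 and -3.42 on CP arrays 1 to 4. Its difference was 5.71 ± 0.09 (52.2-fold, limma adjusted p = 8.82e-10). Mki67, the Ki-67 proliferation antigen that coats mitotic chromosomes, stood at 4.37, 4.35, 4.31 and 4.21 on V/SVZ arrays 1 to 4 and -1.03, -0.97, -0.65 and -0.86 on CP arrays 1 to 4. The tissues did not overlap there either, and the difference was 5.19 ± 0.08 (36.4-fold, limma adjusted p = 1.03e-09).

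The members also moved together between arrays of 1 tissue, by small amounts. V/SVZ replicate 3 was the lowest of its tissue for 37 of the 48 genes, against 6827 of 19190 genes tested. The members' median deviation from the tissue mean on it was -0.10 (all genes tested -0.02). CP replicate 3 was the highest for 29 of 48, against 4997 of 19231 genes tested, with a median deviation of 0.09 (all genes 0.00). Radial glia markers deviated by 0.11 on CP replicate 3 and by -0.16 on CP replicate 2, on which the members' median deviation was -0.06. Intermediate progenitor markers did not follow the members on CP replicates 1 and 3. They deviated by -0.04 on CP replicate 3 and by 0.13 on CP replicate 1, where the members were at -0.04. On CP replicates 2 and 4 these markers were at -0.027 and -0.001, and the members at -0.055 and 0.003. On V/SVZ replicate 3, radial glia markers deviated by -0.04 and intermediate progenitor markers by -0.09. Genes at least 8-fold higher in V/SVZ showed -0.06 on V/SVZ replicate 3, the lowest for 346 of 688. On CP replicate 3 they showed 0.07, the highest for 303 of 688. The part of tissue composition in these shifts was not tested. They are small beside the tissue difference, and leaving out any 1 array left 47 members called.

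**Figure D4:**
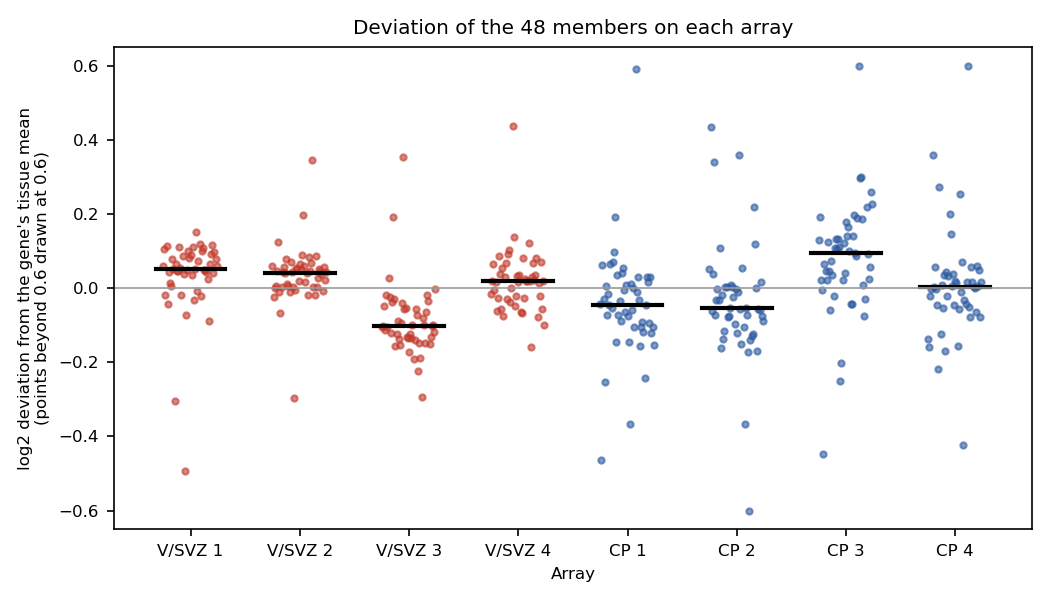
Each point is 1 of the 48 members on 1 array, placed by its log2 deviation from that gene's mean over the 4 arrays of the tissue (red V/SVZ, blue CP; points beyond 0.6 are drawn at 0.6), with a bar at the median. The medians stand at -0.10 on V/SVZ 3 and 0.09 on CP 3, and between -0.06 and 0.05 on the other arrays.

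Another 120 genes of the same pathways, none of them among the 48, were followed as 5 lists. Of 118 tested, 92 were higher in V/SVZ, 14 higher in CP and 12 not called, with a median difference of 1.45. The remaining 2, Clasp1 and Kif14, were not tested. That median lies between those of the 48 genes and of all genes. Of 29 other kinetochore genes, 24 were higher in V/SVZ and 1 in CP, with a median of 2.44. Sgo1 (shugoshin, protector of centromeric cohesion) at 5.68 and Ska1 at 5.57 differed most among those above background on all 8 arrays. Genes named from the other lists were held to the same condition. Cenpb, which binds the centromeric box, was higher in CP (difference -0.73 ± 0.06, adjusted p = 5.29e-06). Clasp2 (-0.65), Cenpt (-0.11), Bod1 (-0.06) and Cenpc1 (0.11) were not called. For Clasp2 this rests on V/SVZ replicate 1 (-2.68, others -3.92 to -3.73): without it the difference was -0.94 and called higher in CP (adjusted p = 1.16e-05).

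Other checkpoint and anaphase-promoting complex genes had the smallest median of the 5 lists. Of 20, 14 were higher in V/SVZ and 2 in CP, with a median of 0.33. Cdca3 (5.36) and Fbxo5 (Emi1, inhibitor of the complex; 3.72) led in V/SVZ. Anapc10 (-1.22 ± 0.06, adjusted p = 2.7e-07) and Mad2l1bp (-0.14 ± 0.04, adjusted p = 0.00579) were higher in CP. The subunits Anapc5 (-0.08), Cdc27 (0.03) and Anapc4 (0.08) and the nuclear pore protein Tpr (0.01) were not called.

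Of 21 other mitotic regulators, 17 were higher in V/SVZ and 3 in CP, with a median of 2.30. The kinase Pbk differed by 6.26 and Ccnb1 (cyclin B1, the Cdk1 partner) by 5.84. Plk2 and Plk3, relatives of Plk1 known for stress and activity responses, went the other way, with differences of -3.99 ± 0.05 (adjusted p = 3.81e-10) and -0.99 ± 0.07 (adjusted p = 3.15e-06) while Plk1 was higher in V/SVZ. Lin37 (0.00) was not called.

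Of 27 other spindle genes, 23 were higher in V/SVZ and 3 in CP, with a median of 3.57. Aspm, a spindle pole protein whose loss causes microcephaly, differed by 5.49 and Kif22 by 4.83. Dctn1, a dynactin subunit that also serves axonal transport, was higher in CP by 1.97-fold (-0.98 ± 0.24, adjusted p = 0.00534), with V/SVZ replicate 1 at 3.26 and the other V/SVZ arrays at 4.31. Without that array it was -0.71 (adjusted p = 1.09e-06). Tacc2 was at -0.68 ± 0.04 (adjusted p = 7.52e-07), and Kif2a (-0.17) was not called.

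The list of other cytokinesis genes had 21 tested, not all of them specific to cytokinesis. It split into 14 higher in V/SVZ, 5 in CP and 2 not called, with a median of 0.46. The kinesins Kif20a and Kif20b differed by 5.23 and 2.69. Stmn1 (stathmin, a tubulin-binding protein) at -0.70 ± 0.04 (adjusted p = 4.8e-07) and Myh10 (nonmuscle myosin IIB) at -0.66 ± 0.04 (adjusted p = 1.18e-06) were higher in CP, while Chmp4b (0.08) and Kiz (0.22) were not called.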

How the data were processed

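Total RNA (100 ng) from each dissected sample was, per the labels' protocols, amplified and labelled with Cy3. According to the deposited file headers, Agilent Feature Extraction 10.7.1.1 made the deposited intensity values, a background-subtracted and detrended signal per spot. A second file deposited by the authors holds log2 values, centred on each probe. Its columns follow the same-numbered arrays of the other tissue in the scanner files, so it served only as an alternative, with the tissues turned and as named; its filter and scaling stay unknown, and its column medians ran from -0.03 to 0.02. Per-sample columns left unmapped numbered 0.

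Groups and replicate numbers came from the sample titles. Control spots and outlier spots (142 to 258 an array) were left out, spots of a probe were averaged, and each array's 75th percentile (2113 to 2566) was subtracted on the log2 scale. No gene spot was saturated. Probes were named by accession through RefSeq (GRCm38.p6): 26761 of 39429 matched a symbol. The 23860 probes well above background on all 4 arrays of a tissue were tested, and a gene was read from its brightest one. limma 3.58.1 in R 4.3.3 (lmFit, eBayes) fitted all 19232 genes, tissue as the only term, after being checked on simulated data. Pairs of members were compared by exact permutation over the arrays.

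The members and all lists were chosen with earlier results of these data known. Any member may be named. From each other pathway list, the 2 called genes with the largest difference in each direction that were above background on all 8 arrays are named, with all that were not called. Alternatives tried were median, quantile and spike-in scaling, normexp correction (offset 50), other probe filters, the mean of a gene's probes, a replicate block, eBayes with trend, array weights, the deposited table, other promoter windows and leaving out each array.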

Additional observations from a re-analysis of the deposited data

Results flagged for a closer look

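In each tissue, a member's highest or lowest array was set against the other 3 by Dixon's gap ratio. Of 96 groups, 5 stood out, and chance flags about 1 in 20 groups. In V/SVZ, replicate 3 was low for Plk1 (3.47, others 3.63 to 3.65) and Melk (0.91, others 1.15 to 1.18). In CP, replicate 3 was high for Cenpa (-2.75, others -2.92 to -2.91), Tpx2 (-3.09, others -3.52 to -3.47) and Top2a (-3.08, others -3.45 to -3.42). All 5 fall on the replicate 3 arrays, on which the members as a whole also deviated, and in all 5 the odd array lies toward the other tissue. Without either array, all of these genes stayed higher in V/SVZ.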

How the results depend on the processing

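The 47 calls among members held under every alternative run on the scanner files except the filter to probes above background on all 8 arrays, which tested 43 members and called 42, and normexp correction, which called 48. The median difference was 4.40 with quantile normalization, 3.65 with normexp correction and 4.45 with the all-array filter, and 4.25 to 4.35 when 1 array was left out. Fzr1 changed sign, at 0.075 with median scaling, 0.041 with quantile normalization, 0.23 with normexp correction, 0.035 as the mean of its probes and 0.022 with array weights, and ran from -0.054 to 0.036 when 1 array was left out. Normexp correction moved the fold of 18 members by over 1.5 times, the mean of probes that of Tpx2 (23.5-fold) and leaving out CP replicate 2 that of Pttg1; the cause was not tested. In the authors' deposited table with its columns as named, 0 members were higher in V/SVZ and 38 in CP (median -4.25). Over all genes, 6173 were called higher in V/SVZ and 5466 in CP. Of the other pathway genes, 14 were called higher in V/SVZ and 84 in CP. With the tissues turned, 38 of 39 members were higher in V/SVZ. TTTGAA or TTCGAA was in 28 members over the whole promoter entry and in 15 before the start. With a replicate block the fit called 47 members, 6757 genes for V/SVZ and 8620 for CP, at a median of 4.29; same-numbered samples deviated together with correlations of 0.34, 0.31, 0.10 and 0.20, which do not establish a pairing. The fitted folds of Cdc25c, Ttk, Cenpf, Aurkb and Plk4 use CP signals not well above background on some or all CP arrays.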
